A study of Danio rerio with 19 samples.

Results

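H3K9me3 in the brain of 20-month-old (20 M) zebrafish was compared between ZT16, which falls in the dark phase, and ZT4, which falls in the light phase. The members were all H3K9me3 peaks that the authors listed for these groups, 87948 at ZT16 and 19177 at ZT4, which together made 107125 of the 242100 peaks of the whole series. Zeitgeber time (ZT) counts the hours after lights on. H3K9me3 is histone H3 trimethylated on lysine 9.

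The fish were wild-type animals of the SAT strain and carried no transgene or deletion. They were held on 12 h of light and 12 h of darkness for a week before the brains were taken, at ZT16 in the later group and at ZT4 in the earlier group. Each group had 3 chromatin immunoprecipitation libraries, made from cross-linked brain tissue with an antibody against H3K9me3, and the series also holds ZT16 and ZT4 groups at 4 and 12 months and 1 library made with an antibody against GFP. A whole brain mixes many cell types, so more cells with the mark and more of the mark per cell cannot be told apart.

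Each list was made from the 3 libraries of its group together. It gives the position of each peak in the GRCz10 assembly and a whole-number score from the peak caller, on a scale that the lists do not name. No value is given for a single library, so the spread between libraries and the depth behind a peak are unknown. For that reason, no test between ZT16 and ZT4 could be made from these lists. All differences are therefore descriptions of 2 pooled lists. Intervals on shares are Wilson 95% intervals and cover counting error only, since neighbouring peaks are not independent. Intervals on medians and on differences of shares likewise treat peaks or sites as independent. None of the intervals measures the spread between libraries or tests ZT16 against ZT4. Where a list has no peak, the caller made no call, and a weaker mark below its limit may still have been present.

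As background, H3K9me3 is written by histone methyltransferases such as those of the SUV39 family and is read by heterochromatin protein HP1. It packs repeats, transposons and silent genes into compact chromatin. In the circadian clock, CLOCK and BMAL proteins activate genes such as per and cry, whose products return to repress them. In mammals the PER complex has been found with an H3K9 methyltransferase.

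The ZT4 sites were almost entirely a subset of the ZT16 sites. Of the ZT16 peaks, 18969 overlapped a ZT4 peak by at least 1 bp, a share of 21.6% (interval 21.3 to 21.8), and 68979 were listed at ZT16 only. Of the ZT4 peaks, 18975 overlapped a ZT16 peak, a share of 98.9% (interval 98.8 to 99.1), and 202 were listed at ZT4 only. In 18586 places exactly 1 ZT16 peak met exactly 1 ZT4 peak, and these are called 1-to-1 sites. The remaining overlaps, 383 ZT16 peaks and 389 ZT4 peaks, lay where a peak of one time met several of the other. By length, the ZT16 peaks also listed at ZT4 covered 3.70 Mb, which was 36.4% of the sequence covered at ZT16. When only the top 19177 ZT16 peaks by score were kept, the length of the ZT4 list, 68.7% of them were also listed at ZT4 and 69.2% of the ZT4 peaks at ZT16.

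Which ZT16 peaks were also listed at ZT4 followed their score. The ZT16 list was divided into 10 deciles by score. In the highest decile, with scores from 318 to 552, 93.4% of 8866 peaks were also listed at ZT4 (interval 92.9 to 93.9). In the decile just under it the share was 50.4%, and in the next ones down 27.8%, 18.8% and 11.8%. In the lower 5 deciles, with scores from 10 to 186, only 1155 of 43870 peaks (2.63%) were also listed. All 882 peaks in the highest 1% of the ZT16 list had a ZT4 peak. The highest 2 deciles together exceeded the lowest 2 by 70.6 percentage points (interval 69.9 to 71.3).

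At the same score, longer peaks were listed at ZT4 more often than shorter ones. Of the ZT16 peaks of 200 bp or more, 52.5% of 10964 were also listed at ZT4, against 0.296% of the 25716 peaks under 60 bp. That is a difference of 52.2 points (interval 51.3 to 53.2). Between these classes, the share was 21.0% at 60 to 99 bp and 39.4% at 100 to under 200 bp. In finer classes, without regard to score, the share did not rise evenly. It was 46.3% at 80 to 99 bp and 31.9% at 150 to under 200 bp, with median scores of 278 and 107 in this order. Within the decile that ran from score 187 to 215, it was 61.7% of 567 peaks of 200 bp or more, 41.2% of 691 peaks of 100 to under 200 bp, 7.36% of 5583 peaks of 60 to 99 bp and 0.564% of 2128 peaks under 60 bp. In the lowest 2 deciles, even peaks of 200 bp or more were also listed in only 4.34% and 3.81%. The difference between the longest and shortest classes was 29.3 points when each decile by score had equal weight in both classes. It was 88.5 points with the ZT16 list reduced to the length of the ZT4 list. Both values draw on very few short peaks at high scores, since deciles 8, 9 and 10 held 7, 4 and 5 peaks under 60 bp.

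**Figure D1:**
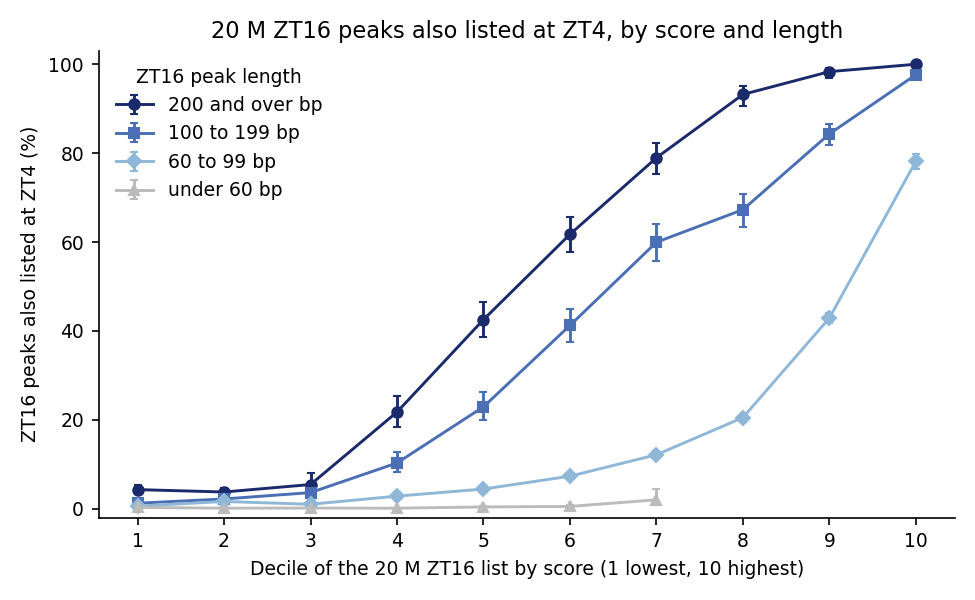
The share of 20 M ZT16 peaks also listed at ZT4 (vertical axis, percent) is plotted against the decile of the ZT16 list by score (horizontal axis), with 1 line for each length class and bars for Wilson 95% intervals, and classes with fewer than 20 peaks are not drawn. At decile 6 the 4 lines stand at 61.7%, 41.2%, 7.36% and 0.564%, from the longest class to the shortest.

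The shortest ZT16 peaks had almost no counterpart at ZT4. The ZT16 list held 13090 peaks under 50 bp, of which 19 were also listed at ZT4 (0.145%, interval 0.0929 to 0.227), while its shortest peak had 39 bp. The ZT4 list held no peak under 50 bp, and 1308 of its peaks had exactly 50 bp. The lists thus differ in the shortest peak they hold, and the part of that limit in the result was not tested. Nor was its part tested in the low share of all ZT16 peaks under 60 bp and the differences measured from that class. Counting only peaks of at least 50 bp in both lists, 25.3% of the ZT16 peaks were also listed at ZT4. The middle lengths of the lists were alike, with a median of 73 bp at ZT16 and 76 bp at ZT4.

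The ZT16-only peaks were shorter and lower in score than the peaks also listed at ZT4. Peaks also listed at ZT4 had a median length of 110 bp (quartiles 87 and 240), against 66 bp (quartiles 53 and 83) for ZT16-only peaks. Their median score was 306, against 156 for ZT16-only peaks. Only 583 ZT16-only peaks were in the highest decile of the ZT16 list, and none was in its highest 1%. The 5 ZT16-only peaks with the highest scores had scores from 378 to 415 and lengths from 54 to 125 bp. Of these, 3 lay on unplaced scaffolds, and the others were chr20:45743556-45743676, with a score of 391, and chr3:3337310-3337434, with a score of 382. All 5 were also listed in both 4 M lists, and the peaks on chromosomes 20 and 3 in the 12 M ZT16 list too.

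The 202 ZT4-only peaks stood at the low end of their list. Their median score was 16 and their median percentile within the ZT4 list was 3.19 (quartiles 0.694 and 7.06), and 154 of them scored under 20. A percentile gives the share of the list with a lower score, with ties counted at their middle. On chromosome 4 lay 50 of the ZT4-only peaks (24.8%), against 3.91% of the ZT4 peaks also listed at ZT16. These shares were not weighted by score, and 76.2% of the ZT4-only peaks scored under 20, against 7.06% of the others. Low-scoring 1-to-1 sites were often on chromosome 4 too. Of 251 such sites in the lowest 2 deciles of the ZT16 list, with a median ZT4 score of 17, 138 lay there beyond 25 Mb. The ZT4-only peak with the highest score was chr25:35029020-35029069, of 50 bp, with a score of 53 and a percentile of 96.1, and it was in none of the 4 M lists nor the 12 M ZT16 list. The next 4 were chr4:52697030-52697090 with a score of 49, chr12:446127-446190 with 42, chr8:2833387-2833537 with 41 and chr4:64296818-64296867 with 35. Of these 4 peaks, those on chromosomes 4 and 8 were listed at 4 M at 1 or both times, and the peak on chromosome 12 was not.

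Peaks close to other peaks were also listed at ZT4 slightly more often than isolated ones. Of 20328 ZT16 peaks with another ZT16 peak within 1 kb, 22.6% were also listed at ZT4, against 21.3% of 67620 isolated peaks, a difference of 1.33 points (interval 0.686 to 1.99). Clustered peaks had lower scores, with a median of 163 against 192 in isolated peaks. Within each decile by score the share was higher in clustered peaks, in 10 of 10 deciles, by 0.833 to 5.39 points. The average was 2.74 points with each decile weighted alike in both classes. In the lowest 2 deciles, 157 of the peaks also listed at ZT4 lay on chromosome 4 beyond 25 Mb, and 91.7% of them were clustered. On the other numbered chromosomes, 41.3% of 109 such peaks were clustered, against 33.0% of all 15186 peaks of those deciles. The deciles were not compared without chromosome 4. Clustered peaks were also longer, with a median of 80 bp against 72 bp, and with length classes weighted as well the average was 1.61 points. Without weights, the difference turned to -0.13 points when a shared peak had to overlap by at least 50% of both peaks. A wide ZT4 peak can list several clustered ZT16 peaks at once. When each ZT4 peak was assigned to the 1 ZT16 peak it overlapped most, which left 126 ZT16 peaks without one, the difference was 0.715 points, with 22.0% of clustered and 21.3% of isolated peaks, and clustered peaks were still higher in 10 of 10 deciles, by 0.0970 to 4.48 points. It was 12.8 points with the ZT16 list reduced to the length of the ZT4 list, where clusters were set anew among the peaks kept. With a ZT4 peak within 1 kb counted as shared, the difference was 16.1 points. That value follows in part from the definitions, since a clustered peak then also counts through the ZT4 peak of its neighbour.

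The share was not even across cluster sizes. It was 25.2% in groups of 2 peaks, 20.5% in groups of 3, 12.0% in groups of 4 and 5.10% in groups of 5. In groups of 6 or more it was 9.31% of 1214 peaks (interval 7.80 to 11.1), where the median score was 19. Peaks of the same score decile and length class averaged 3.05% over the whole ZT16 list. Such an average, weighted to the scores and lengths of a given set of peaks, is called the score-and-length average from here on. The groups of 6 or more stood above theirs only on chromosome 4 beyond 25 Mb, a limit chosen with the values known. There, 24.3% of 407 peaks were also listed, against an average of 2.57%. Elsewhere it was 1.73% of 807 peaks, under their average of 3.30%.

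The listing of a peak was also set against that of its nearest ZT16 peak. With that neighbour within 0.3 kb, 49.02% of 1530 peaks were also listed at ZT4 when the neighbour was, against 15.0% of 5194 when it was not. The score-and-length averages of these classes were 37.6% and 14.8%. However, 253 of the 1530 peaks met the very ZT4 peak that their neighbour met, so that both were listed by construction. Without them the share was 38.9% of 1277 peaks, against an average of 36.9%. At 0.3 to 1 kb no pair shared a ZT4 peak, and the share beside a listed neighbour was 35.7% with an average of 33.8%. With the neighbour 3 to 10 kb away, the shares were 26.6% and 20.2%, and the averages were 27.0% and 20.4%.

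Chromosomes differed little apart from chromosome 4. On the other 24 numbered chromosomes, the share of ZT16 peaks also listed at ZT4 ran from 19.5% on chromosome 8 to 23.9% on chromosome 18. On chromosome 4 it was 16.1% of 4635 peaks (interval 15.1 to 17.2), with a difference of -5.202 points from the other numbered chromosomes (interval -6.27 to -4.08). Chromosome 4 also had lower scores, with a median of 140, and its score-and-length average was 14.1%. With each decile by score given the same weight on chromosome 4 as on the others, the difference was -0.10 points. With classes of score and length weighted in this way it turned to 0.47 points. With the ZT16 list reduced to the length of the ZT4 list it was -1.73 points, and with ZT4 peaks within 1 kb counted it was -3.14 points. On the 24 others the share minus the score-and-length average ran from -0.902 to 0.791 points.

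**Figure D2:**
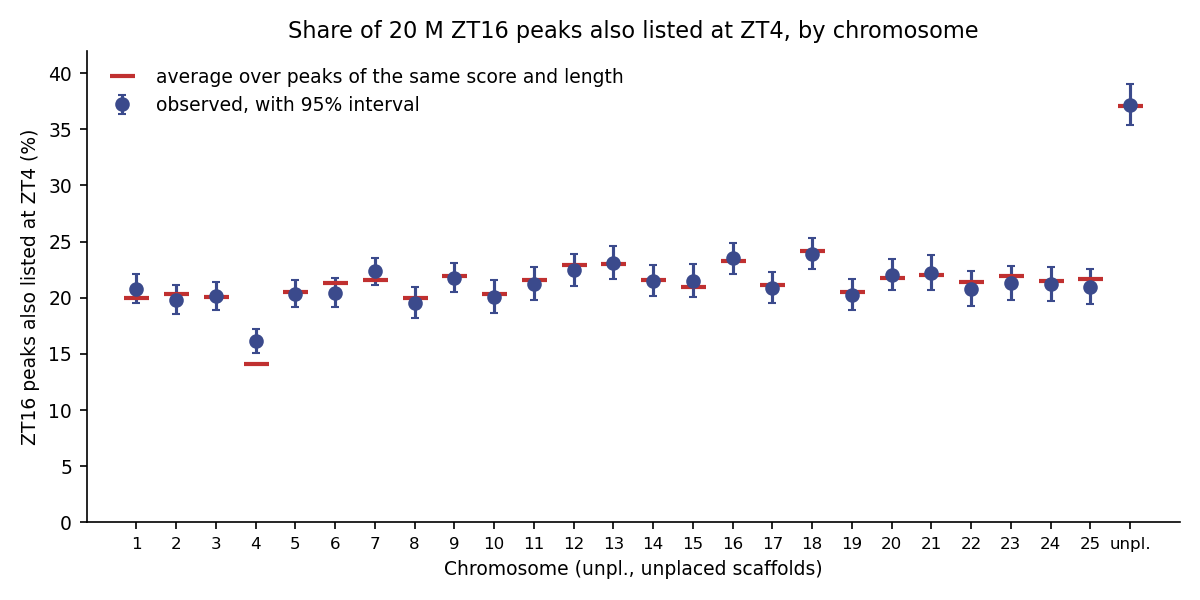
The share of 20 M ZT16 peaks also listed at ZT4 (vertical axis, percent) is shown for chromosomes 1 to 25 and the unplaced scaffolds, as points with Wilson 95% intervals, and the red marks give the average over ZT16 peaks of the same score and length. Chromosome 4 stands lowest at 16.1% with its mark at 14.1%, and the unplaced scaffolds stand highest at 37.2% with theirs at 37.1%.

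The unplaced scaffolds, pieces of the assembly with no chromosome position, held 2788 ZT16 peaks and 1057 ZT4 peaks. There, 37.2% of the ZT16 peaks were also listed at ZT4 (interval 35.4 to 39.01), against 21.1% on the numbered chromosomes. The median length was 106 bp on the scaffolds, against 73 bp on the numbered chromosomes, and the score-and-length average was 37.1%.

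Chromosome 4 departed from the other chromosomes in opposite directions at low and middle scores. The long arm of zebrafish chromosome 4 is known as a repeat-rich, heterochromatic arm with few ordinary protein-coding genes. In the lowest decile of the ZT16 list, with scores from 10 to 22, 96 of 1010 chromosome 4 peaks were also listed at ZT4 (9.505%, interval 7.85 to 11.5), against 46 of 7371 (0.624%) on the other numbered chromosomes. In the next decile it was 64 of 671 (9.54%) on chromosome 4, against 63 of 7815 (0.806%) on the others. From decile 4 to decile 8 the order was reversed, with 6.70% on chromosome 4 against 12.0% on the others at scores from 187 to 215. In the highest decile both were at about 93%, with 254 of 273 peaks on chromosome 4 (93.0%) and 93.2% on the others.

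Most of the low-scoring chromosome 4 peaks also listed at ZT4 lay in a few places. Beyond 25 Mb, a limit chosen with the values known, 157 of 1466 peaks of the lowest 2 deciles were also listed at ZT4 (10.7%, interval 9.23 to 12.4), against 3 of 215 up to 25 Mb. With each ZT4 peak assigned to 1 ZT16 peak, 150 of the 157 stayed listed. The 157 peaks lay in 19 windows of 1 Mb. Of these peaks, 118 lay in only 3 windows. Without those windows the share was 3.52% of 1108 peaks (interval 2.59 to 4.78), against 0.718% of 15186 peaks of the lowest 2 deciles on the other numbered chromosomes. Of the 157 peaks, 91.7% were clustered and 78.3% were in groups of 4 or more, against 60.4% and 36.4% of the 1309 ZT16-only peaks of the same kind. The 157 peaks were also wider, with a median of 220 bp against 138 bp. In the 4 M lists, 59.2% of them were listed at ZT16 and 92.4% at ZT4, against 14.1% at ZT16 and 33.2% at ZT4 of the 1309 ZT16-only peaks. In groups of 6 or more the share was 24.3% of 407 peaks beyond 25 Mb on chromosome 4 and 1.73% of 807 peaks elsewhere. The score-and-length averages were 2.57% and 3.30% in this order. Many of these are the same low-scoring peaks, so this split is not a separate observation.

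Across the genome the share varied from window to window. Of 1352 windows of 1 Mb on the numbered chromosomes, 1335 held at least 30 ZT16 peaks. Their median share was 19.7%, and the 10th and 90th percentiles were 11.1% and 30.5%. The SD over windows was 7.84 points, against 5.13 points from the counting error of a plain share. That error does not take the differing scores and lengths of the peaks in a window into account. The lowest share was at chr4:31000001-32000000, where 2 of 150 peaks (1.33%) were also listed at ZT4. The other 4 lowest windows were chr13:15000001-16000000 with 1 of 54, chr4:67000001-68000000 with 1 of 51, chr1:43000001-44000000 with 3 of 102 and chr4:40000001-41000000 with 2 of 61. At the other end were chr9:49000001-50000000, with 51 of 95 peaks (53.7%, interval 43.7 to 63.4), and chr25:5000001-6000000, with 41 of 77 (53.2%). After them came chr16:55000001-56000000 with 16 of 35, chr21:1000001-2000000 with 42 of 93 and chr18:46000001-47000000 with 28 of 62. Chromosome 4 held 76 of the 1335 windows, none of the 25 windows over 40% and 22 of the 98 windows under 10%.

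The score and length of the peaks in a window went with most of this variation. Over the 1335 windows, the share and the score-and-length average had a Spearman rho of 0.85, given as a description across windows of the same libraries. The windows at the extremes followed it too, with an average of 49.7% for the window on chromosome 9 and 4.14% for the lowest window on chromosome 4. The SD of the share minus the average was 3.74 points. Adjacent windows had a rho of 0.19 in the share and of 0.02 in the share minus the average, over 1305 pairs.

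The 3 windows farthest above their average were all on chromosome 4, and were singled out after their values were seen. At chr4:61000001-62000000, 66 of 206 ZT16 peaks were also listed at ZT4 (32.0%), against an average of 4.11%. At chr4:47000001-48000000 it was 26 of 90 (28.9%) against 4.76%, and at chr4:51000001-52000000 37 of 147 (25.2%) against 5.13%. These windows hold the 118 low-scoring peaks described for chromosome 4. Outside chromosome 4, the farthest window was 13.5 points above its average.

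**Figure D3:**
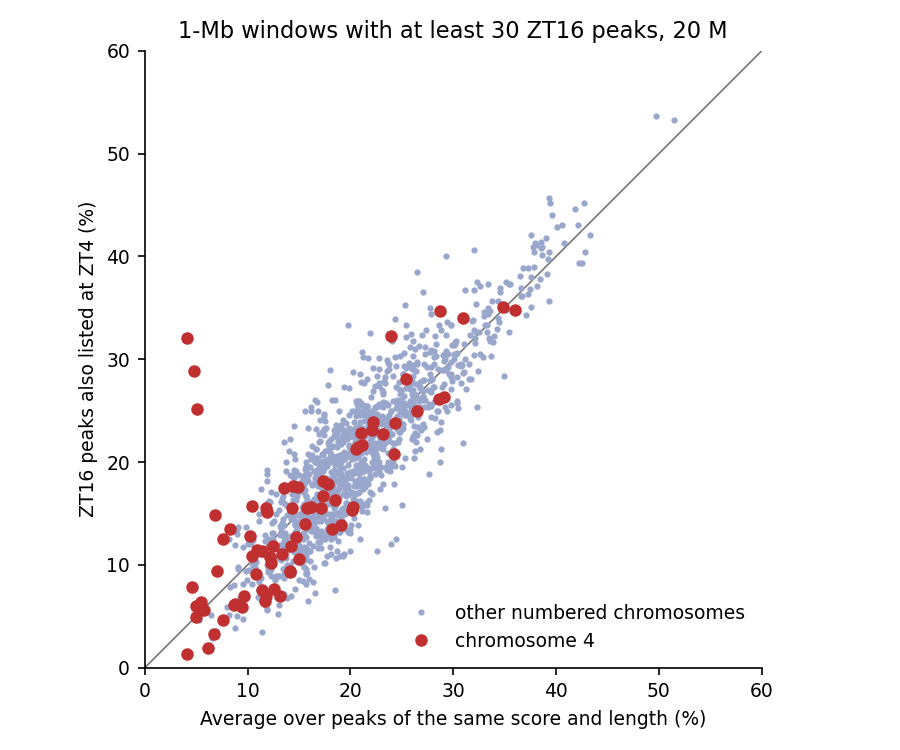
Each point is a window of 1 Mb with at least 30 ZT16 peaks, placed by the score-and-length average of its peaks (horizontal axis, percent) and by the share also listed at ZT4 (vertical axis, percent), with equality drawn as a line and chromosome 4 in red. Most points lie along the line, and 3 chromosome 4 windows with averages under 6% stand at 25.2%, 28.9% and 32.0%.

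At the 1-to-1 sites, the same places held different standing in their lists. The median percentile within the whole list was 87.8 at ZT16 and 49.2 at ZT4, and the median difference, ZT16 minus ZT4, was 32.6 points (interval 32.0 to 33.1). It was positive at 16455 sites (88.5%). This difference is bound up with the unequal list lengths, since nearly the whole ZT4 list but mainly the upper part of the ZT16 list is at these sites. With the ZT16 list reduced to its 19177 highest-scoring peaks, the median difference was 4.62 points, and with the sites ranked among themselves it was 1.32 points. The rank among the 1-to-1 sites, from 0 to 100 points, is used for these sites in the paragraphs that follow. Percentiles given for peaks and loci remain those within the whole list.

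Ranks at ZT16 and ZT4 went together only loosely. The Spearman rho of the scores over the 18586 sites was 0.47, a description across sites that share their libraries. The rank at ZT16 was at least 20 points above the rank at ZT4 at 4561 sites (24.5%), and at least 20 points under it at 4299 sites (23.1%). At 30.1% of the sites the ranks lay within 10 points. Of the 1862 sites in the highest decile at ZT16, 289 (15.5%) were in the highest decile at ZT4 and none in the lowest decile. Of the 1876 sites in the lowest decile at ZT16, 863 (46.0%) were in the lowest decile at ZT4 and 43 in the highest. Scores took 535 distinct values at ZT16 and only 80 at ZT4, so many ZT4 ranks are tied. The rho was 0.21 with scores of at least 30 in both lists and 0.28 with the ZT16 list reduced to the length of the ZT4 list.

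Longer sites ranked higher at ZT16 than at ZT4, and the shortest ranked lower. By the length at ZT16, the median rank difference was 16.1 points at 1313 sites of 500 bp or more and -28.1 points at 2201 sites of 60 to 79 bp. It did not climb evenly between them, with 12.2 points at 100 to under 150 bp and 0.03 points at 200 to under 300 bp. The length and rank of the same ZT16 peak go together, with median ZT16 ranks of 27.7 at 60 to 79 bp and 93.1 at 500 bp or more. Sorting by ZT16 length thus bears on the rank difference itself. By the length at ZT4 it was 18.4 points at 909 sites of 500 bp or more and 13.4 points at 300 to under 500 bp. At 4743 sites of 60 to 79 bp by this length it was 0.88 points, and at 5316 sites under 60 bp it was -10.6 points. In the broadest class by ZT4 length, 45.8% of the sites ranked at least 20 points higher at ZT16 and 1.76% at least 20 points lower. The rho of the scores was 0.63 at 5090 sites of 150 bp or more in both lists and 0.30 at 11415 sites under 150 bp in both. At ZT4 peaks under 60 bp it was 0.02.

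**Figure D4:**
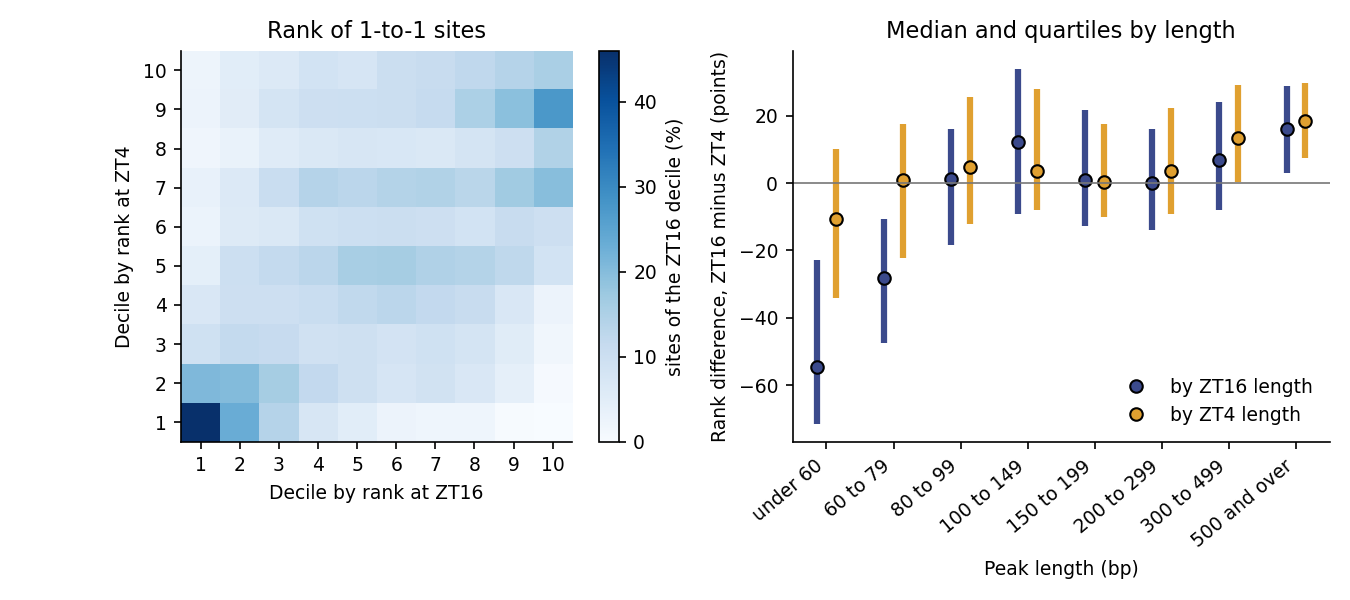
On the left, the 1-to-1 sites of each decile by rank at ZT16 (horizontal axis) are spread over the deciles by rank at ZT4 (vertical axis), with the shade giving the percent of the ZT16 decile. On the right, points give the median and bars the quartiles of the rank difference, ZT16 minus ZT4 in points, by peak length in bp. The darkest cell is the lowest decile at both times with 46.0%, and the median difference runs up to 18.4 points at 500 bp or more by ZT4 length.

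The ZT4 peak nearly always lay within a wider ZT16 peak. At 18016 of the 1-to-1 sites (96.9%) the ZT16 peak held the whole ZT4 peak, and the median distance between their midpoints was 4.50 bp. The ZT16 peak was a median of 1.36 times as long as the ZT4 peak (quartiles 1.19 and 1.57), with median lengths of 110 bp at ZT16 and 75 bp at ZT4. It was the shorter at 107 sites (0.576%). The ratio was 1.56 at ZT4 peaks under 60 bp and 1.06 at those of 500 bp or more. The 3 longest sites had nearly the same length at both times, with 1747 bp at ZT16 and 1701 bp at ZT4 for chr22:24528200-24529946, 1513 bp and 1499 bp in this order for chr3:59340002-59341514, and 1428 bp and 1409 bp for chr16:51849455-51850882.

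By chromosome, the median rank difference was small. It ran from -1.69 points at 720 sites on chromosome 4 to 3.70 points at 720 sites on chromosome 13, and was 10.1 points at 1008 sites on unplaced scaffolds, where the median ZT16 length was 233.5 bp. Of the 1-Mb windows, 840 held at least 10 sites, and the 10th and 90th percentiles of their medians were -11.6 and 12.0 points. Adjacent windows had a rho of 0.05 over 587 pairs. Clustered and isolated sites had medians of 1.94 and 1.15 points.

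Single sites reached far larger differences. The site farthest lower in rank at ZT16 was chr15:6908-7077, which had a score of 55 and rank 1.31 at ZT16, against a score of 68 and rank 99.5 at ZT4. A site nearby, chr15:7373-7457, had rank 1.47 at ZT16 and 98.2 at ZT4, so both lay near the start of chromosome 15. The others were chr4:33491190-33491242 with rank 1.35 at ZT16 and 98.8 at ZT4, chr9:3226848-3227139 with 1.61 and 98.8 in this order, and chr17:49414246-49414515 with 2.11 and 97.6.

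In the other direction, chr16:8914961-8915116 had a score of 440 and rank 89.0 at ZT16, against a score of 20 and rank 7.85 at ZT4. It was followed by a site on an unplaced scaffold with rank 87.4 at ZT16 and 6.38 at ZT4. Next were chr1:45304778-45304956 with 89.2 at ZT16 and 11.2 at ZT4, chr6:56444730-56444930 with 92.8 at ZT16 and 15.1 at ZT4, and chr14:9162771-9162888 with 83.7 at ZT16 and 6.38 at ZT4. These 5 sites were 102 to 201 bp long at ZT16.

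The listing of the ZT16 peaks at other ages, which had no part in the 20 M overlap, separated the same classes. Of the peaks also listed at ZT4, 99.2% were listed at 4 M ZT16, against 53.6% of ZT16-only peaks, a difference of 45.6 points (interval 45.2 to 46.0). Peaks also listed at ZT4 had the higher share in 9 of 10 deciles by score and an equal one, 100%, in the highest, and with the ZT16 list reduced to the length of the ZT4 list the difference was 0.0167 points. The shares at 4 M ZT4 were 99.6% of the peaks also listed at ZT4 and 71.1% of ZT16-only peaks, with the higher share in peaks also listed at ZT4 in 7 of 10 deciles and an equal one in the others. At 12 M ZT16, whose list held 8755 peaks, they were 43.7% and 0.397% in the same order, and the share was higher in 10 of 10 deciles. The 12 M ZT4 list held 29 peaks, and 27 of the peaks also listed at ZT4 and 0 of 68979 ZT16-only peaks met one, which allows a share of up to 0.00557%. In the highest decile by score, all 583 ZT16-only peaks were listed at both 4 M times. The sites missing at 20 M ZT4 thus included 36786 ZT16-only peaks (53.3%) that were listed at both 4 M times, while 19725 (28.6%) were in no 4 M or 12 M list and had a median percentile of 12.4.

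Among the lists of 20 M and 4 M, that of 20 M ZT4 stood apart in how it ranked the sites they share. At 18242 sites with 1 peak in each of the 4 lists of 20 M and 4 M, the rho between 20 M ZT16 and 20 M ZT4 was 0.46. Between 20 M ZT16 and the 4 M lists it was 0.86 for ZT16 and 0.90 for ZT4, and between the 4 M lists it was 0.87. Between 20 M ZT4 and the 4 M lists it was 0.55 for ZT16 and 0.53 for ZT4. The 20 M ZT4 list also had the lowest scores of these 4 lists, with a median of 35 and a maximum of 95. In the other lists, medians ran from 75 to 187 and maxima from 189 to 552. Its scores took only 80 distinct values, against 535 in the 20 M ZT16 list, so many of its ranks are tied. The part of this narrow score range in its lower rho values was not tested. The sites were also ranked anew among these 18242. Those at least 20 points higher at ZT16 at 20 M had a median rank difference of 34.3 points at 20 M and -1.45 points at 4 M, over 4541 sites. Those ranked at least 20 points lower at ZT16 had -37.4 points at 20 M and 2.37 points at 4 M, over 4273 sites. The 20 M values follow from how these sites were chosen, and the 4 M values do not. All of these describe single pooled lists and carry no test.

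Loci whose transcripts the study lists as diurnal at 20 M were examined for peaks within 3 kb. Only their positions and names were used, and no loci outside this list were counted. The counts of loci with a peak therefore cannot be set against other loci. Loci also differ in length, with a median of 18.4 kb for annotated loci, 37.6 kb for the clock loci among them and 5.02 kb for unannotated loci. Of 117 annotated loci, 83 had a ZT16 peak (70.9%, interval 62.2 to 78.4) and 40 had a ZT4 peak (34.2%, interval 26.2 to 43.2). All 40 also had a ZT16 peak, 43 had a peak at ZT16 only, none had one at ZT4 only and 34 had none. In the whole ZT4 list, 98.9% of the peaks were also listed at ZT16. These loci held 316 ZT16 peaks, of which 74 (23.4%, interval 19.1 to 28.4) were also listed at ZT4, beside 21.6% of the whole ZT16 list. Of 76 unannotated loci, 44 had a ZT16 peak and 22 a ZT4 peak, and 26.8% of their 142 ZT16 peaks were also listed at ZT4.

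**Figure D5:**
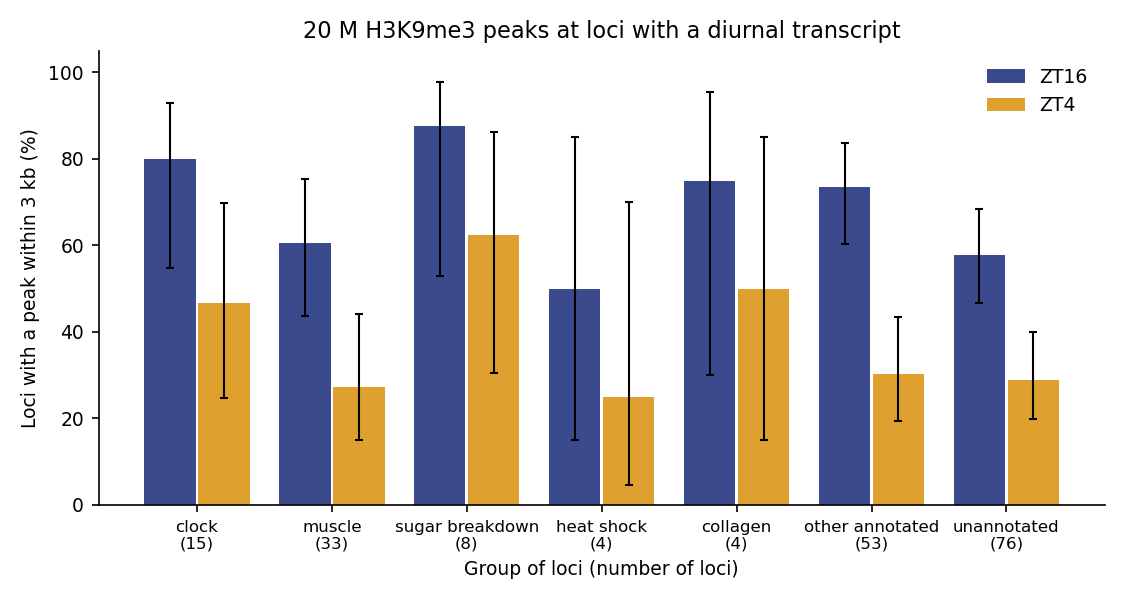
Bars give the percent of loci with an H3K9me3 peak within 3 kb at 20 M, ZT16 in blue and ZT4 in yellow, for groups of loci with a diurnal transcript, and error bars are Wilson 95% intervals. The ZT16 list is the longer, and its bar is the taller in each group, with 12 of the 15 clock loci marked at ZT16 and 7 at ZT4, and the intervals of the groups overlap widely.

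At the 15 clock loci, 17 of 69 ZT16 peaks, counted once per locus, were also listed at ZT4 (24.6%, interval 15.99 to 36.0), beside 21.6% of the whole ZT16 list. Percentiles at these and the other loci are set within lists of unequal length. Over all 18586 sites with a single peak in each list, the median percentile was 87.8 at ZT16 and 49.2 at ZT4. A lower percentile at ZT4 is thus common across the lists, and departures of single loci from it were not tested. The activators of the clock come first. At clocka, which encodes a CLOCK protein, 7 peaks were listed at ZT16, with percentiles from 29.95 to 74.9, and 2 at ZT4. The 2 of the 7 ZT16 peaks that were also listed at ZT4, chr20:22219622-22219696 and chr20:22223029-22223095, had percentiles of 60.3 and 74.9 at ZT16, against 53.4 and 73.8 for the ZT4 peaks there. At arntl2, which encodes a BMAL partner of CLOCK, 2 peaks were listed at ZT16, at percentiles of 81.9 and 48.3, and 0 at ZT4. At rorcb, of the ROR receptors that activate Bmal genes in mammals, 4 peaks were listed at ZT16 and 2 at ZT4, with the ZT4 peaks at percentiles of 34.5 and 15.9.

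Among the repressors, per2 had 5 ZT16 peaks and 2 ZT4 peaks. The ZT16 peaks of per2 that were also listed at ZT4, chr2:48452951-48453059 in the flank and chr2:48466598-48466681 in the locus, had percentiles of 91.2 and 77.8 at ZT16, against 28.5 and 18.1 at ZT4. Over all sites with a single peak in each list, the percentile difference had a median of 32.6 points and an upper quartile of 51.3 points. Whether per2 departs from those sites was not tested. At per3, 4 peaks were listed at ZT16, with percentiles from 25.1 to 59.1, and 0 at ZT4. At per1b none was listed at ZT16 or ZT4. At cry1aa, a cryptochrome gene, a single site, chr4:12023768-12023860, was listed at both times, with a percentile of 86.0 at ZT16 and 73.8 at ZT4. At cry2, 3 peaks were listed at ZT16 with percentiles from 59.5 to 75.3, and 0 at ZT4. At bhlhe40, which encodes a basic helix-loop-helix repressor, none was listed at either time.

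Genes of the REV-ERB receptors, which repress Bmal genes in mammals, differed among themselves. At nr1d4b, 20 peaks were listed at ZT16 and 6 at ZT4, the most of any clock locus, and the locus is long. The highest was chr11:2190126-2190875, of 750 bp, with a percentile of 99.8 at ZT16 and 77.3 at ZT4. Of its ZT16 peaks, 6 were also listed at ZT4, among them all 4 with a percentile above 90. At nr1d4a, also long, 16 peaks were listed at ZT16 and 3 at ZT4, and the site chr23:35803502-35803602 had a percentile of 92.1 at ZT16 and 98.0 at ZT4. At nr1d2b, 2 peaks were listed at ZT16, with percentiles of 77.1 and 66.3, and 0 at ZT4, and at nr1d1 none at either time. At nfil3-2 and nfil3-6, which encode basic leucine zipper repressors, 3 and 2 peaks were listed at ZT16, with the peak chr3:13945322-13945374 in reach of both, and a single ZT4 peak at nfil3-6 had a percentile of 8.56.

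In the other groups more loci had a peak at ZT16 than at ZT4 as well, and the ZT16 list as a whole is the longer, with 87948 peaks against 19177. The share of ZT16 peaks also listed at ZT4 was 25.8% of 66 at muscle loci, 27.3% of 22 at loci of sugar breakdown, 16.7% of 6 at heat shock loci, 15.8% of 19 at collagen loci and 22.4% of 134 at the other annotated loci. The intervals of all 5 groups hold the 21.6% of the whole list. Of 33 muscle loci, 20 had a ZT16 peak and 9 a ZT4 peak. At igfn1.1, which encodes an immunoglobulin-like and fibronectin domain protein of muscle, 19 peaks were listed at ZT16 and 9 at ZT4, with median percentiles of 77.4 at ZT16 and 61.7 at ZT4. Of the 17 ZT16 peaks at muscle loci that were also listed at ZT4, 9 were at igfn1.1. At casq1a (calsequestrin), ckmb (muscle creatine kinase) and klhl31 (a kelch-like protein), 3, 2 and 2 peaks were listed at ZT16 and 1 each at ZT4. Of 8 loci of sugar breakdown, 7 had a ZT16 peak and 5 a ZT4 peak. The group includes slc2a1a, which encodes a glucose transporter and not an enzyme of sugar breakdown. At slc2a1a lay 12 of the 22 ZT16 peaks and 5 of the 9 ZT4 peaks of the group. They stood low in both lists, with medians of 5.10 at ZT16 and 4.30 at ZT4, and only 2 of the 12 overlapped a ZT4 peak. The loci of aldoca (aldolase), pfkma and pfkmb (phosphofructokinase) had 1, 1 and 4 peaks at ZT16 and 1 each at ZT4.

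Of 4 heat shock loci, 2 had a ZT16 peak, and hsf2, a heat shock transcription factor gene, had 3 peaks at ZT16 and 1 at ZT4, with the ZT4 peak at a percentile of 91.6. Of 4 collagen loci, 3 had a ZT16 peak and 2 a ZT4 peak. At col1a2 there were 7 peaks at ZT16 and 2 at ZT4, and at col1a1b 10 at ZT16 and 1 at ZT4. Among the 53 other annotated loci, 39 had a ZT16 peak and 16 a ZT4 peak. The most were at pcxb, a pyruvate carboxylase gene, with 34 at ZT16 and 5 at ZT4. At atp1a2a, a sodium pump subunit gene, 7 were listed at ZT16 and 3 at ZT4, at hs3st1l1, a heparan sulfate sulfotransferase gene, 6 and 3 in this order, and at etv5b, an ETS transcription factor gene, 3 and 2. At slc4a1a, which encodes the band 3 anion exchanger, 3 peaks were listed at ZT16, with percentiles of 61.3, 78.1 and 84.8, and 0 at ZT4.

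Among the unannotated loci, XLOC_008541 on chromosome 12 held 7 ZT16 peaks and 6 ZT4 peaks, with median percentiles of 94.3 at ZT16 and 49.7 at ZT4. The loci XLOC_048192, XLOC_050169 and XLOC_074780 held 7, 6 and 4 ZT16 peaks and 3 ZT4 peaks each.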

How the data were processed

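Single-end reads of 50 bp were aligned by the authors to GRCz10 (Bowtie2). They ran MACS2 on the 3 libraries of a group together and deposited 1 peak list for each group. The paper also compared H3K9me3 between ZT4 and ZT16 with DiffBind, and the lists used here do not hold those results. The deposited value of a peak is a whole-number score of the peak caller on a scale that is not named. Which library served as the control of the calls is not given in the sources used here. Scores were ranked within a list and never subtracted between lists.

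Peaks were shared at an overlap of at least 1 bp. Percentiles are mid-ranks. Score-and-length averages use 10 deciles by ZT16 score and 4 length classes (limits 60, 100 and 200 bp). Clusters chain peaks within 1 kb. Windows of 1 Mb needed 30 ZT16 peaks. Intervals are Wilson, Newcombe (differences) or order-statistic (medians) 95% intervals. Loci came from the study's list of diurnal transcripts at 20 M, positions and names only, with 3 kb on each side. Named are every clock locus, slc4a1a and, per other group, at most 4 loci with peaks at both times, those with the most ZT4 peaks (ties alphabetically). Named sites are the 5 extremes each way, the 5 highest single-list peaks, the 5 highest and 5 lowest windows and the 3 longest sites.

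The members, gene groups and rules were chosen with earlier results of these data known. Scripts ran in Python 3.11.15 (pandas 2.3.3, numpy 2.4.6; scipy 1.17.1 for ranks), and figures were drawn with matplotlib 3.10.9. The overlap code found 1500 of 1500 planted overlaps among 5000 simulated peaks and gave 0 differences from bedtools 2.31.1 on the 20 M lists. Sequences and annotated features under peaks were not analysed here.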

Additional observations from a re-analysis of the deposited data

Results flagged for a closer look

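The difference in whole-list percentile between ZT16 and ZT4 at 1-to-1 sites had opposite signs at 2 ages. The median percentile difference, ZT16 minus ZT4, was 32.6 points at 20 M over 18586 sites and -7.30 points at 4 M over 55145 sites. The longer list was that of ZT16 at 20 M and that of ZT4 at 4 M. The 18242 sites with 1 peak in each 20 M and 4 M list were also ranked among themselves. Their median rank difference was 1.47 points at 20 M and -0.0973 points at 4 M, so the opposite whole-list values did not recur in size there. The part of list length in either value was not tested further. At 20 M the ZT16 peak was shorter than the ZT4 peak at 0.576% of the sites, and at 4 M at 92.6%. With 1 pooled list for each age and time, the difference between the ages was not tested.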

How the results depend on the processing

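Recomputing 15 results under alternatives gave 128 values, of which 55 stayed within the 95% interval of the reported value or, for values without one, within 1.5 times of it, 71 moved beyond it and 2 turned in sign. These intervals leave out the spread between libraries, so small shifts also count as moved. On numbered chromosomes only, for example, the ZT16 peaks also listed at ZT4 moved from 21.6% to 21.1%. The cause of a shift was not tested. No paired analysis was possible because each group has 1 pooled list, which also allows no value without a replicate. Merging peaks within 1 kb leaves no clustered peaks, so it gave no value for them. The 50 bp minimum, the weighting by score and length together, the weighting of the length classes by score and the assignment of each ZT4 peak to 1 ZT16 peak were chosen after seeing the data.

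With scores of at least 20, ZT4 peaks also listed at ZT16 were 99.6%, the median percentile difference 33.4, rho 0.38, sites 20 points apart 51.9% (against 47.7%), the score difference 73.3, the length difference 55.7, the clustered difference 4.63 and the 4 M difference 39.95 points. With at least 30, ZT16 peaks also listed were 17.4%, ZT4 peaks 99.9%, the percentile difference 36.0, rho 0.21, sites apart 59.2%, the score, length and clustered differences 64.9, 51.2 and 5.06, and the 4 M difference 34.9. On numbered chromosomes only, ZT16 peaks were at 21.1%, the length ratio 1.37, the score and length differences 68.4 and 50.9 and the 4 M difference 45.1. Without chromosome 4, ZT16 peaks were at 21.9%, ZT4 peaks at 99.2%, and the score and length differences at 71.9 and 53.5.

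With a reciprocal overlap of 50%, ZT16 peaks were at 19.5%, ZT4 peaks at 89.4%, the percentile difference 33.2, rho 0.48, the length ratio 1.33, the score, length and 4 M differences 67.6, 42.8 and 47.4, and the clustered difference -0.13. With a peak within 1 kb counted as shared, they were 25.03%, 99.3%, 33.3, 0.46, 1.37, 68.5, 49.3 and 42.6 in the same order, the clustered difference 16.1 and that of chromosome 4 -3.14. With peaks within 1 kb merged, ZT16 peaks were at 23.4%, the percentile difference 31.6, the length ratio 1.41, and the score, length and 4 M differences 74.4, 46.99 and 42.7.

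With lists of equal size, ZT16 peaks were at 68.7%, ZT4 peaks at 69.2%, the percentile difference 4.62, rho 0.28 and sites apart 56.6%. The length ratio was 1.37, the score, length and clustered differences 63.9, 88.5 and 12.8, that of chromosome 4 -1.73 and the 4 M difference 0.0167. The spread of windows between the 10th and 90th percentiles was 30.9 points (against 19.4). It covers only windows with at least 30 of the 19177 ZT16 peaks kept, so the 2 spreads are not of the same windows. The percentile difference was 1.32 when ranked among the sites, 34.3 as the share strictly below and 29.2 from 50 bp up, where ZT16 peaks were at 25.3%. Sites 30 points apart were 30.9%, and windows of 5 Mb had a spread of 12.6 points. Weighted by score, the length, clustered and chromosome 4 differences were 29.3, 2.74 and -0.10 points, and weighted by score and length that of chromosome 4 was 0.47. The counts of 1-to-1 sites and of loci with a peak stayed within 1.5 times their values under every alternative run.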
